A study of Mus musculus with 12 samples.

Results

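*Siglecf*, *Krt79*, *Ptprc*, *Cd47* and *Cd86* are genes of the identity and the surface of airway macrophages (AMs), the resident phagocytes of the airspaces. They were measured by RNAseq in AMs of *Scnn1b*-Tg mice and of wild-type (WT) mice, and the question was whether transgenic AMs had lost expression of genes that mark the resident cell. The 5 members came from a list of resident and surface genes, and they were selected on measured values as well. Rows of the deposited table are unnamed, and one could be named only by pairing it with one of 1999 genes, which had been retained for small p-values in a comparison of *Scnn1b*-Tg with WT on the same libraries. All 5 members were among them, so they are 5 of 1999 paired genes and 5 of 19161 rows. The contrast of *Scnn1b*-Tg with WT is thus one that chose the members. Its values, and the calls that its fit made, are given for them and for every other named gene as a description that supports nothing. Only other contrasts are used as tests.

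The 12 libraries are 6 of AMs from mice of genotype *Scnn1b*-transgene and 6 of AMs from wildtype littermates, all C57BL/6, female and 6 weeks old by the study's methods, with no treatment. The transgene is driven by the promoter of the club cell secretory protein, which is active in airway epithelium, and the model therefore changes the surroundings of the AMs. The cells had been sorted from lung as positive for CD45, Siglec-F and CD11c, so that the proteins of *Ptprc* and *Siglecf* were themselves sorting gates and cells low in either protein were left out. Batches 1, 2 and 3 hold 1 library of each genotype, and batch 4 holds 3 of each, with the WT and the *Scnn1b*-Tg libraries of batch 4 on different flow cells. Total counts per library ranged from 40259958 to 121813289. Expression is given as CPM, counts scaled to library size with TMM factors.

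Resident AMs are seeded before and around birth, maintain themselves in the airspaces and clear surfactant, and their identity depends on GM-CSF signalling and the lipid-sensing receptor PPARγ. Siglec-F, a sialic acid-binding receptor with an inhibitory tail, is shared by AMs and eosinophils and is the usual surface mark of AMs in mice. CD45 is the tyrosine phosphatase of all nucleated blood cells, CD47 is the ligand that restrains phagocytes through SIRPα, and CD86 is a co-stimulatory ligand of the B7 family that binds CD28 and CTLA-4.

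Transcripts of 4 of the members were abundant in WT AMs, and *Cd86* was low. *Siglecf* (ENSMUSG00000039013, chromosome 7 from 43351341 to 43359531) had 440.2 ± 134 CPM (SD, n = 6). *Krt79* (ENSMUSG00000061397, chromosome 15 from 101929332 to 101940324), which encodes a type II keratin, had 578 ± 52.7 CPM (SD, n = 6). *Ptprc* (ENSMUSG00000026395, chromosome 1 from 138062861 to 138175708), the gene of CD45, had 999.9 ± 155 CPM (SD, n = 6). *Cd47* (ENSMUSG00000055447, chromosome 16 from 49800533 to 49915010) had 819 ± 143 CPM (SD, n = 6), and *Cd86* (ENSMUSG00000022901, chromosome 16 from 36603869 to 36666081) had 10.2 ± 2.03 CPM (SD, n = 6). Coordinates are those of GENCODE M21 on mm10. The lowest raw count of *Cd86* in any library was 180, and the lowest raw count of any other member was 18324.

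Levels of different genes were compared per kilobase (kb) of merged exons. On this scale the mean WT level was 158 CPM per kb for *Siglecf*, 131 for *Cd47*, 122 for *Krt79*, 54.6 for *Ptprc* and 2.80 for *Cd86*. The top of this order depended on the batch, since *Siglecf* exceeded *Cd47* in the 3 WT libraries of batch 4 and was below it in those of batches 1 to 3. *Cd47* exceeded *Krt79* in 4 of 6 WT libraries. *Krt79* exceeded *Ptprc*, and *Ptprc* exceeded *Cd86*, in 6 of 6. Among the 1977 paired genes with a known length, *Siglecf* ranked 98, *Cd47* 121, *Krt79* 128, *Ptprc* 227 and *Cd86* 1302, and the median level was 6.21 CPM per kb. The order of the upper 4 depended on the length used. Per kb of the longest transcript, *Krt79* came first at 236 CPM per kb, followed by *Ptprc* at 174, *Siglecf* at 169 and *Cd47* at 156. *Ptprc* is the member for which the 2 lengths differ most, 18313 against 5740 bases, in a gene known for alternative splicing of its extracellular exons.

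In the comparison of the genotypes, all 5 members had a lower estimate in *Scnn1b*-Tg AMs. By the thresholds of the study (log2 fold change beyond 0.5 in either direction, adjusted p-value below 0.1), 1 of the 5 was called lower, *Krt79*, where 0.0589% of the 16972 rows tested were called lower. With the adjusted p-value alone, 2 of the 5 were called lower, *Krt79* and *Siglecf*, against 0.106% of rows. The call of *Siglecf* was lost in each of 12 fits without 1 library and under several other settings. The 6 *Scnn1b*-Tg libraries lay below the 6 WT libraries for 1 of the 5, again against 0.0589% of rows, and 4 of the 5 were lower in each of the 4 batches, against 7.48% of rows. Nothing is read from these counts, because the same contrast chose the genes. In bulk RNA, less RNA per cell and a smaller share of cells that carry a transcript cannot be told apart.

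The marks of the resident AM come first. *Krt79* had its lowest WT value at 506 CPM, its median at 594 CPM and its highest at 638 CPM, whereas the *Scnn1b*-Tg libraries ran from 311 CPM through a median of 367 CPM to 431 CPM. Every *Scnn1b*-Tg library was below every WT library, with a gap between the groups, and the spread within a genotype was small, with a coefficient of variation of 9.12% in WT and 10.5% in *Scnn1b*-Tg. The log2 fold change was −0.65 (SE 0.07), and the log2 difference within a batch was −0.57, −0.76, −0.65 and −0.63 in batches 1 to 4. *Krt79* was thus the member whose level followed the genotype most closely and the batch least.

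*Siglecf* varied more with the batch than with the genotype. Its WT values had a minimum of 279 CPM, a median of 447 CPM and a maximum of 585 CPM, and its *Scnn1b*-Tg values had a minimum of 239 CPM, a median of 345 CPM and a maximum of 473 CPM. Taken over all libraries the groups overlapped, with batches 1 to 3 low and batch 4 high in both genotypes. Within each batch *Scnn1b*-Tg was lower. The pair of batch 1 stood at 239 CPM against 279 CPM, that of batch 2 at 268 CPM against 321 CPM and that of batch 3 at 295 CPM against 367 CPM. In batch 4 the means were 437 ± 39.6 CPM in *Scnn1b*-Tg and 558 ± 28.9 CPM in WT (SD, n = 3 each), without overlap. The log2 fold change with batch as a covariate was −0.31 (SE 0.06), and the 4 differences within batches lay between −0.22 and −0.35. The ratio of *Scnn1b*-Tg to WT estimated by this fit was 0.807.

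**Figure D1:**
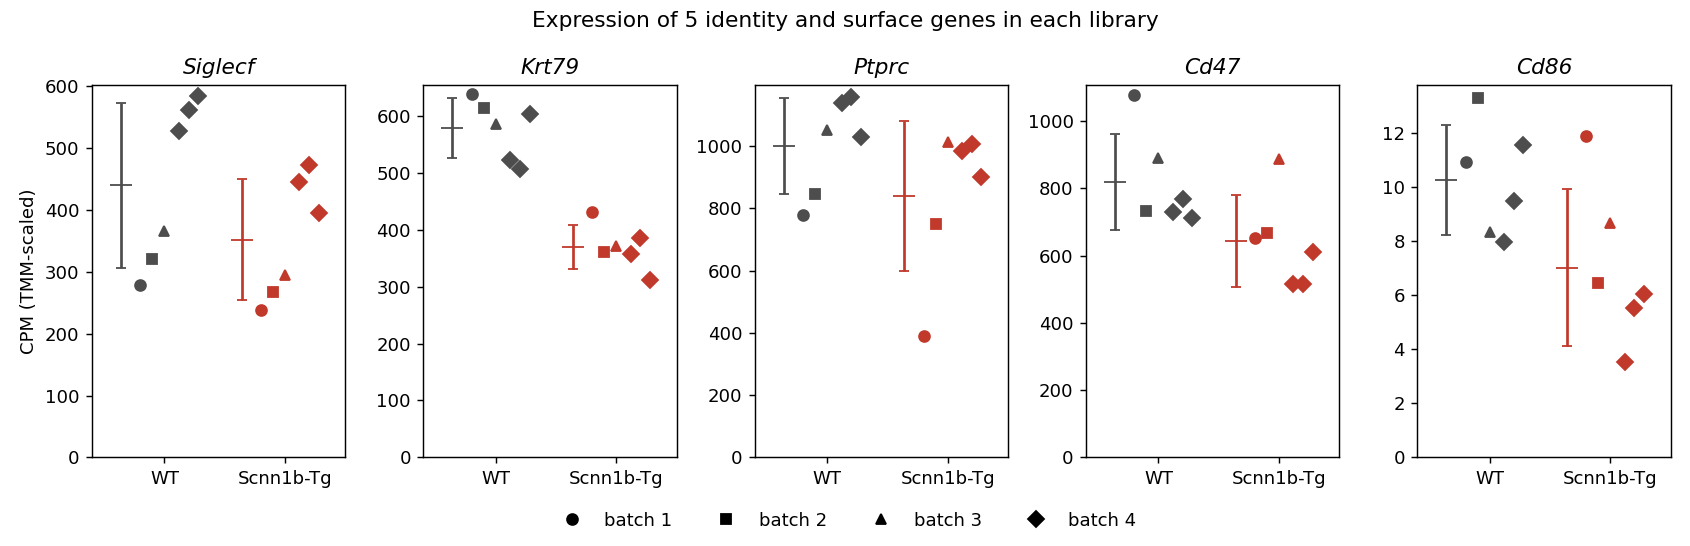
CPM (TMM-scaled, y axis starting at 0) of *Siglecf*, *Krt79*, *Ptprc*, *Cd47* and *Cd86* in 6 WT and 6 *Scnn1b*-Tg libraries, with the batch shown by the symbol and mean ± SD at the left of each group. The groups are apart for *Krt79* (at most 431 CPM in *Scnn1b*-Tg and at least 506 CPM in WT) and overlap for the other members.

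The leukocyte phosphatase gene and the ligand gene *Cd47* had smaller or less even differences. *Ptprc* had WT values with a lowest of 779 CPM, a median of 1040.05 CPM and a highest of 1158 CPM, and *Scnn1b*-Tg values with a lowest of 389 CPM, a median of 941 CPM and a highest of 1012 CPM. The lowest value belonged to the *Scnn1b*-Tg library of batch 1, and the other 5 *Scnn1b*-Tg libraries, from 748 CPM up, lay within or just below the WT range. The log2 fold change was −0.30 (SE 0.11), with differences of −1.002, −0.17, −0.05 and −0.20 in batches 1 to 4. It rested in part on batch 1, for it was −0.17 in the fit without the *Scnn1b*-Tg library of that batch, −0.17 without its WT library and −0.17 without both.

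*Cd47* ran from 713 CPM through a median of 751 CPM to 1079 CPM in WT and from 517 CPM through a median of 632 CPM to 888 CPM in *Scnn1b*-Tg. The highest library of each genotype was in batches 1 to 3, and the groups overlapped. Its log2 fold change was −0.36 (SE 0.09), and the difference was −0.72 in batch 1, −0.14 in batch 2, −0.0045 in batch 3 and −0.43 in batch 4. In batch 3 the 2 libraries were therefore nearly level, at 888 CPM in *Scnn1b*-Tg and 891 CPM in WT.

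*Cd86*, the co-stimulatory ligand, is the one of the 5 that is commonly used as a mark of macrophage activation. It had WT values with a minimum of 7.97 CPM, a median of 10.2 CPM and a maximum of 13.3 CPM. Its *Scnn1b*-Tg values had a minimum of 3.51 CPM, a median of 6.25 CPM and a maximum of 11.9 CPM. The groups overlapped, and *Scnn1b*-Tg was lower in 2 of the 4 batches. Differences within batches were 0.12, −1.04, 0.05 and −0.96 on the log2 scale, and the log2 fold change over the 12 libraries was −0.62 (SE 0.23).

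**Figure D2:**
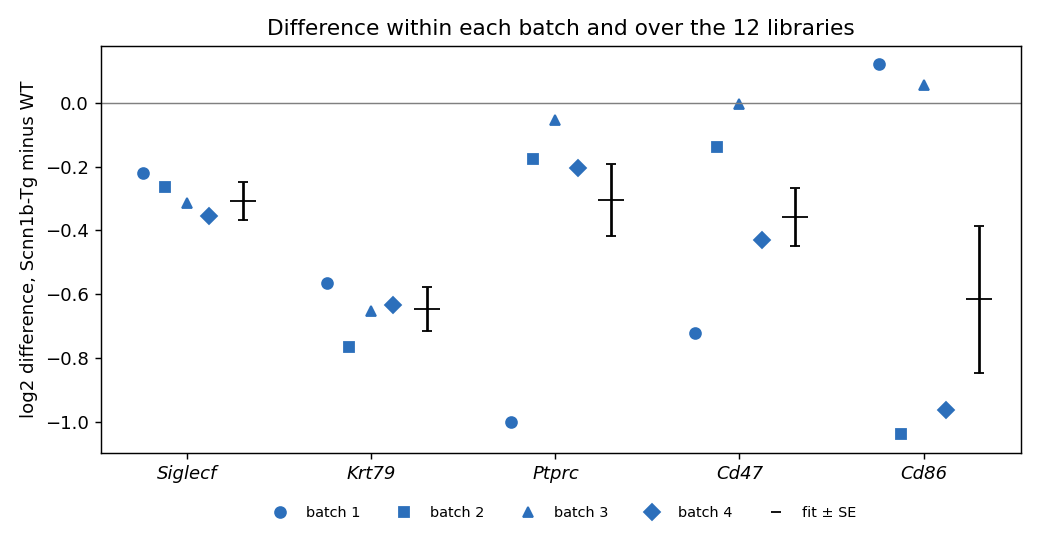
Log2 difference between *Scnn1b*-Tg and WT within each batch (blue symbols; batches 1 to 3 are 1 library against 1, batch 4 is 3 against 3) and log2 fold change ± SE of the fit over 12 libraries with batch as a covariate (black). The 4 batches lie close together for *Siglecf* (−0.22 to −0.35) and *Krt79*, and on both sides of 0 for *Cd86*.

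Whether the genotype effect differed between batches 1 to 3 and batch 4 was tested for each row by a coefficient other than the one that chose the members. The choice still bears on it, since small p-values for genotype are favoured by an even effect and a small residual spread, so that few calls among the members are no evidence of an even effect. None of the 5 members passed an adjusted p-value of 0.1 in edgeR's quasi-likelihood test (0 of 5), where 0.112% of rows did, and limma-voom also called 0 of 5. The largest estimate was that of *Cd86*, whose log2 fold change was lower in batch 4 by a difference of −0.66 (SE 0.43, adjusted p = 0.814 from edgeR after Benjamini-Hochberg adjustment). Without 1 library it ranged from −0.99 to −0.42. The smallest was that of *Krt79*, at 0.03 (SE 0.14, adjusted p = 1). For *Siglecf* the difference was −0.09 (SE 0.12, adjusted p = 0.949). The difference was 0.21 (SE 0.22) for *Ptprc* and −0.14 (SE 0.19) for *Cd47*. For every member but *Cd86* the standard error exceeded the estimate, so that differences of these sizes were not resolved. Within batch 4 alone, the 3 *Scnn1b*-Tg libraries were below the 3 WT libraries for 5 of the 5 members, as for 7.44% of rows, a count of the contrast that chose them.

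The level itself differed between batches for every member at this threshold. The contrast of batch 4 with the mean of batches 1 to 3, also a coefficient other than the selecting one, passed an adjusted p-value of 0.1 for 2 members that were higher in batch 4 (2 of 5, where 28.4% of rows were higher) and for 3 that were lower (3 of 5, where 30.9% were). *Siglecf* was higher in batch 4 by a log2 difference of 0.76 (SE 0.06, adjusted p = 2.1e-06 from edgeR) and *Ptprc* by 0.41 (SE 0.11, adjusted p = 0.0101). *Cd47* was lower, with a log2 difference of −0.35 (SE 0.09, adjusted p = 0.00871). *Krt79* (−0.16, SE 0.07, adjusted p = 0.0860) and *Cd86* (−0.49, SE 0.23, adjusted p = 0.0989) passed narrowly. When single libraries were dropped in turn, the pass was lost in 10 of 12 fits for *Krt79*, with an adjusted p-value of up to 0.320, and in 9 of 12 for *Cd86*, with one of up to 0.315. *Siglecf*, *Ptprc* and *Cd47* passed in all 12. The study made its paired-end baseline libraries with a SMART-Seq kit and its single-end ones with a NEBNext kit, on different sequencers. The labels do not say which libraries are of which type. The titles of batch 4 name a flow cell, and those of batches 1 to 3 do not. If type follows this split, library type and batch cannot be told apart in these differences, and its part was not tested.

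The same contrast appears in the shares of variance. Of the variance of log2(CPM + 1) over the 12 libraries, batch held 84.3% for *Siglecf*, 69.3% for *Ptprc*, 45.1% for *Cd47*, 27.7% for *Cd86* and 7.61% for *Krt79*, beside a median of 68.2% over the rows tested. Genotype held 85.9% for *Krt79*, 35.9% for *Cd47*, 35.1% for *Cd86*, 14.2% for *Ptprc* and 13.2% for *Siglecf*, beside a median of 2.21%. These genotype shares belong to the selecting contrast and are a description.

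Genes with the most similar pattern were taken from the paired genes, by Pearson's r over the 12 libraries of log2(CPM + 1) after subtraction of batch means. In batches 1 to 3 this leaves the WT and the *Scnn1b*-Tg library with equal and opposite values, so the 12 values are not independent. *Krt79* was among the 3 nearest to *Siglecf* (r = 0.96, Spearman's rho = 0.90, n = 12), beside *Vrk1*, a chromatin kinase gene (r = 0.97, rho = 0.95), and *Endod1* (r = 0.95, rho = 0.91). Nearest to *Krt79* were *Siglecf*, *Klra2*, a gene of the Ly49 receptor family (r = 0.95, rho = 0.76), and *Gal*, which encodes the neuropeptide galanin (r = 0.95, rho = 0.85). The paired genes share a selection by genotype, and with genotype subtracted as well r was 0.83 between *Siglecf* and *Vrk1* and 0.78 between *Siglecf* and *Endod1*. It fell to 0.76 between *Siglecf* and *Krt79*, to 0.51 between *Krt79* and *Klra2* and to 0.43 between *Krt79* and *Gal*. *Ptprc* was nearest to *Usp1*, *Pdcd6ip* and *Rala* (r = 0.97, 0.97 and 0.96), with r of 0.96, 0.94 and 0.93 after subtraction of genotype. *Cd47* was nearest to *Dnajc21*, *Sec63* and *Pds5a* (r = 0.96 for each; 0.94, 0.91 and 0.88 with genotype subtracted), and *Cd86* to *Mrs2*, *Clock* and *Tgs1* (r = 0.93, 0.92 and 0.92; 0.86, 0.85 and 0.84). The largest falls were thus those of *Krt79*. Among the members themselves, *Ptprc* and *Cd47* had r = 0.81, and 0.61 with genotype subtracted, while 5 of the 10 pairs changed sign. For these r went from 0.69 to −0.60 (*Cd47* with *Krt79*), from 0.65 to −0.40 (*Cd47* with *Siglecf*), from 0.20 to −0.51 (*Cd86* with *Ptprc*), from 0.62 to −0.19 (*Krt79* with *Ptprc*) and from 0.57 to −0.17 (*Ptprc* with *Siglecf*) when genotype was subtracted.

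*Krt79* and *Siglecf* were then set beside the other genes that mark resident AMs. Of a list of 21 such genes, 10 were paired with a row, the 2 members included, and the rest, *Itgax*, *Marco* and *Pparg* among them, were not analysed here. In *Scnn1b*-Tg AMs 5 of the 10 had a higher and 5 a lower estimate, 1 was called higher (*Fabp5*) and 1 lower (*Krt79*), where 50 of the 16972 rows tested were called higher and 10 lower. With the adjusted p-value alone, 3 were lower (*Siglecf*, *Krt79* and *Cidec*) and 1 higher, where 18 rows were lower and 57 higher of 16972. The median log2 fold change of the list was 0.01, beside 0.01 over all rows tested and 0.20 over the 1977 named rows. *Cidec*, a lipid droplet protein gene, had 348 ± 71.9 CPM in WT and 269 ± 42.6 CPM in *Scnn1b*-Tg (SD, n = 6 each; log2 fold change −0.36, SE 0.06). *Fabp5*, a fatty acid-binding protein gene, had 353 ± 190 CPM and 519 ± 263 CPM (SD, n = 6 each; log2 fold change 0.59, SE 0.10), and *Fabp4* of the same family had a log2 fold change of 0.39 (SE 0.09). *Chil3*, the chitinase-like gene that was the most abundant on the list, had a median of 24657.4 CPM in WT and 27621.7 CPM in *Scnn1b*-Tg (n = 6 each), with its highest value, 59318 CPM, in the *Scnn1b*-Tg library of batch 1. *Ear1*, *Mrc1*, *Plet1* and *Bhlhe40* had log2 fold changes of −0.19, −0.15, 0.18 and 0.35. The 2 calls were the same in number with size factors of DESeq2, and without batch 1 there was 1 call, a lower one. The log2 differences of *Fabp5* within batches 1 to 4 were 0.62, 0.40, 0.49 and 0.65. Each of these 10 genes is named only because of the selecting contrast, so the list is no sample of AM markers at large.

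**Figure D3:**
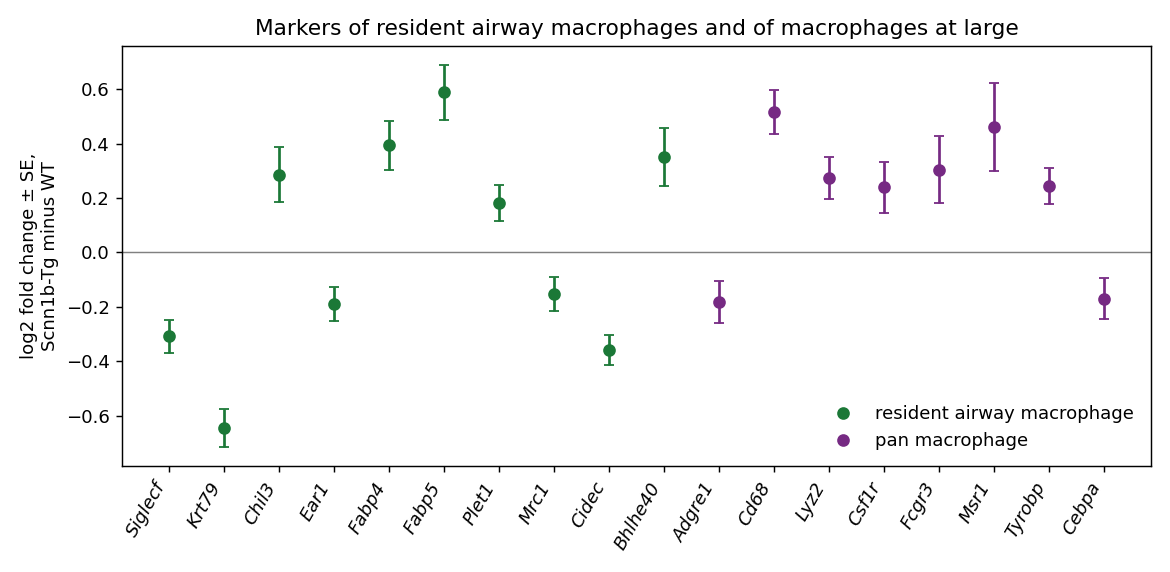
Log2 fold change ± SE of *Scnn1b*-Tg minus WT for the 10 paired markers of resident AMs (green) and the 8 paired markers of macrophages at large (purple), with batch as a covariate. Resident markers lie on both sides of 0, from −0.65 (*Krt79*) to 0.59 (*Fabp5*).

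Of 11 genes shared by macrophages of many tissues, 8 were paired, of which 6 had a higher and 2 a lower estimate, where 880 of the 1977 named rows had a lower one. *Cd68*, a glycoprotein of late endosomes and lysosomes, was the 1 that was called, with 539 ± 48.8 CPM in WT and 772 ± 91.5 CPM in *Scnn1b*-Tg (SD, n = 6 each) and a log2 fold change of 0.52 (SE 0.08). Without batch 1, 0 of the 8 were called. The log2 differences of *Cd68* within batches 1 to 4 were 0.95, 0.45, 0.53 and 0.39. The median of the list was 0.26, beside 0.20 over the named rows. *Lyz2*, the lysozyme gene and the most abundant of the list, had a log2 fold change of 0.27 (SE 0.08), and *Adgre1*, an adhesion receptor gene widely used as a macrophage mark, had −0.18 (SE 0.08).

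The sorted cells were also checked for markers of other cells, which could dilute the transcripts of AMs. *Spp1*, the osteopontin gene, and *C1qb*, a complement gene, are expressed in macrophages derived from monocytes, and neither was called by edgeR. *Spp1* ran from 336 CPM to 639 CPM in WT and from 343 CPM to 945 CPM in *Scnn1b*-Tg (log2 fold change 0.33, SE 0.11), and *C1qb* was at most 14.2 CPM in any library. Of 6 dendritic cell genes, 3 were paired (*Flt3*, *Cd209a* and *Mgl2*), and 0 were called by edgeR and 2, both higher, by DESeq2, which called 243 of 16972 rows. Their summed level, led by *Mgl2*, was 85.9 CPM in the *Scnn1b*-Tg library of batch 1, no more than 7.56 CPM in the remaining 5 of that genotype, 7.59 CPM in the WT library of batch 1 and no more than 1.61 CPM in the remaining 5 of WT. The lowest *Ptprc* was also in the *Scnn1b*-Tg library of batch 1, a match seen in 1 library only. The sort kept cells positive for Siglec-F. The study's flow cytometry defined dendritic cells as negative for Siglec-F and positive for CD45, the protein of *Ptprc*. The study also stained the proteins of *Cd209a* and *Mgl2* as markers of macrophage polarization. The part of dendritic cells in the *Ptprc* value was not tested. Of 7 neutrophil genes, 4 were paired, and *Mmp8* was called higher by edgeR, and 3 of the 4 by DESeq2 (*Mmp8*: 43.0 ± 4.82 CPM in WT and 71.4 ± 12.98 CPM in *Scnn1b*-Tg, SD, n = 6 each). *Csf3r* had a lower estimate (log2 fold change −0.35, SE 0.09). The summed level of these 4 was between 73.8 CPM and 118 CPM in WT and between 105 CPM and 163 CPM in *Scnn1b*-Tg.

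Of 6 T and NK cell genes, 4 were paired and 0 called. Their sum came almost entirely from *Cd2*, at 521 ± 288 CPM in WT and 457 ± 258 CPM in *Scnn1b*-Tg (SD, n = 6 each), while *Cd8a* had a mean of 1.29 CPM and 0.633 CPM. *Jchain*, the 1 paired gene of 4 for B cells, was at most 6.05 CPM in any library. Of 7 epithelial genes, 2 were paired and 0 called, and their sum, led by *Cdh1*, was between 87.1 CPM and 125 CPM in WT and between 99.7 CPM and 163 CPM in *Scnn1b*-Tg. The 4 eosinophil genes were not analysed here. For these lists, the counts called by edgeR were 0 without batch 1. The log2 differences of *Mmp8* within batches 2 to 4 were 0.53, 0.63 and 0.82, beside a log2 fold change of 0.73 over the 12 libraries.

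*Scnn1b*, the gene of the transgene, was low in most libraries. It too is named only through the selecting contrast, so its values are no independent check of the labels. It had 72.0 CPM, 54.1 CPM and 1.88 CPM in the *Scnn1b*-Tg libraries of batches 1, 2 and 3, beside 11.6 CPM, 12.7 CPM and 1.48 CPM in the WT libraries. In batch 4 the *Scnn1b*-Tg libraries had 1.15 CPM, 4.35 CPM and 2.70 CPM and the WT libraries 0 CPM, 0 CPM and 0.297 CPM. *Scnn1b*-Tg was higher in each of the 4 batches, although WT libraries of batches 1 and 2 exceeded the *Scnn1b*-Tg libraries of batches 3 and 4.

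Few partners and relatives of the members could be named. Of 4 ligands and partners of CD47, *Itgb3* was the 1 paired, at 1.47 CPM or less, and *Sirpa* was not analysed here. Of 6 relatives of *Cd86* in co-stimulation, *Cd274* and *Cd40* were paired. *Cd274*, the gene of the inhibitory ligand PD-L1, had 169.9 ± 46.3 CPM in WT and 205 ± 82.2 CPM in *Scnn1b*-Tg (SD, n = 6 each; log2 fold change 0.21, SE 0.09), so that its estimate was opposite to that of *Cd86*. *Cd40* was at most 1.72 CPM. Of 10 genes of the leukocyte surface and of kinases regulated by CD45, 4 were paired (*Itgb2*, *Cd48*, *Selplg* and *Fyn*), and 4 of 4 had a higher estimate, with a median log2 fold change of 0.22, close to the median of 0.20 over all named rows. Of 6 further keratins, *Krt4* and *Krt80* were paired, and *Krt80*, at 7.76 ± 3.86 CPM in WT and 4.68 ± 2.01 CPM in *Scnn1b*-Tg (SD, n = 6 each), and *Krt4*, at 1.33 ± 0.668 CPM and 2.42 ± 1.78 CPM, were far below *Krt79* in CPM, with a lower estimate for *Krt80* and a higher one for *Krt4*. None of the genes in these 4 lists was called by edgeR, and *Cd40* was called lower by DESeq2. The 6 relatives of *Siglecf* were not analysed here.

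The members were looked up in the RefSeq promoters of GRCm38.p6 for short motifs read by macrophage factors, and 3 of the promoters are printed. The table holds 32851 promoters of 27025 genes, each of 300 bases, and 4 of the 5 members are in it. The ETS core GAGGAA, which PU.1 reads, was present on either strand in 28.3% of all promoters, the C/EBP motif TTGCNNAA in 10.8%, the AP-1 motif TGANTCA in 7.81%, CCAAT in 37.4%, TATAAA in 13.6% and a direct repeat read by PPAR and RXR in 0.0396%. In *Siglecf* (chr7:43351091-43351390, plus strand) GAGGAA occurred 1 time, on the strand opposite to the gene, at bases 186 to 191. In *Ptprc*, whose first promoter (chr1:138175256-138175555, minus strand) is shown, it occurred 1 time at bases 93 to 98, and TATAAA occurred 1 time, on the opposite strand, at bases 64 to 69. The promoter of *Krt79* (chr15:101940275-101940574, minus strand) and 2 overlapping promoters of *Cd47* held none of the 6 motifs, and neither did the second promoter of *Ptprc*. The promoters of *Cd47* were rich in GC, at 74% and 74.3% of bases beside a median of 52.7%, and that of *Krt79* had 62% and those of *Ptprc* 33.7% and 39.3%. A match or its absence describes the letters in these windows only. Sequences are written 5′ to 3′ on the strand of the gene, with motif matches in capitals:
Siglecf: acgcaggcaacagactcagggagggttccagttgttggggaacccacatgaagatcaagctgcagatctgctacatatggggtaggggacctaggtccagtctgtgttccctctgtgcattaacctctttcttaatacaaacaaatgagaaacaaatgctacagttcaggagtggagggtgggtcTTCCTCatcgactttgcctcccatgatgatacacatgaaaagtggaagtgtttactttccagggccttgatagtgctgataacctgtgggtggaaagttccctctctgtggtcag
Krt79: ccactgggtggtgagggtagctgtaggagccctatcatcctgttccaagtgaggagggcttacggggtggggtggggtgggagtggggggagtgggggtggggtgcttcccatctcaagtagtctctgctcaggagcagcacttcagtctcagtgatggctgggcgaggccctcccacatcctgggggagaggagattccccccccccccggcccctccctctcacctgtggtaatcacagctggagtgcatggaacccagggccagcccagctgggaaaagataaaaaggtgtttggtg
Ptprc: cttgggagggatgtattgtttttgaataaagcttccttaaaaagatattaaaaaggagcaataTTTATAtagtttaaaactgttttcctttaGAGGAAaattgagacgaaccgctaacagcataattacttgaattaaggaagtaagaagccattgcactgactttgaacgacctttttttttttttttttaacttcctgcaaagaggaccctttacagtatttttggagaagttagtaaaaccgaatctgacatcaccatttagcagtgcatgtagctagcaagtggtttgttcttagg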

How the data were processed

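RNAseq of sorted AMs was analysed in 6 *Scnn1b*-Tg and 6 WT libraries. The authors aligned reads to mm10 with HISAT2 and used StringTie with GENCODE M20 for quantification. As deposited by the authors, the counts had been made from transcript coverage by conversion to whole numbers, unstranded and not normalized, so a total is not a number of reads. *Ptprc* overlaps 1 other annotated gene, with 0 shared exon bases, and the other members overlap none.

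Rows were named by their weighted sum of 12 counts, which had to equal a mean count listed by the study to 1e-09 of its size. Any second candidate was off by 2.88e-07 or more, and 999 of 999 held-out genes received the same row. The listed means served for identity only. Columns of the study's own fold changes and p-values were not used.

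Counts were fitted in edgeR 4.0.16 (R 4.3.3) on the 16972 rows that passed its expression filter, with TMM factors and the quasi-likelihood test, Benjamini-Hochberg adjustment over all rows and batch (4 levels) as a covariate. Standard errors were derived from the F statistic of each coefficient. Within-batch log2 differences use CPM + 0.01. The fits were tested on simulated data, in which the genotype fit found somewhat more changed rows than it missed, the fit with the batch-group coefficient missed most of them, and the share of false calls was a little above the threshold in each. Labels tie the libraries of a batch, and in batches 1, 2 and 3 the deviations of the pair from the genotype means correlated at 0.249, 0.331 and 0.534. The replicate numbers within batch 4, given in accession order, do not pair libraries (−0.0551, −0.0082 and −0.0300). In the 30 pairs within a genotype, the only ones compared for repeated libraries, chi-square per row was 52.5 or more. The labels do not say that each library is 1 animal, and p-values measure the spread between these libraries.

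The members and lists were chosen with earlier results of these data known. Named are the members, *Scnn1b*, list genes that could be paired, and the 3 paired genes most like each member. Alternatives covered normalization (DESeq2 1.42.0), filters, limma-voom (limma 3.58.1), the block, subsets of batches and left-out libraries. A filter by group size and the refits of the lists were chosen after seeing the data.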

Additional observations from a re-analysis of the deposited data

Results flagged for a closer look

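Dixon's test for an outlying value was applied to the 10 groups of 6 libraries formed by the 5 members and the 2 genotypes. In 0 of the 10 groups was a library past its critical value. The *Scnn1b*-Tg library of batch 1 was still low for *Ptprc*, at 389 CPM, where the other 5 of that genotype had 748 CPM or more.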

How the results depend on the processing

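The direction of all 5 log2 fold changes between genotypes was the same under 10 other settings and in 12 fits without 1 library each. No value moved by more than the SD of the 4 differences within batches. This measure is weak for *Ptprc* (SD 0.43) and *Cd86* (SD 0.63), where the SD exceeds the log2 fold change itself. Without 1 library, *Krt79* ranged from −0.68 to −0.61, *Siglecf* from −0.33 to −0.27, *Ptprc* from −0.36 to −0.17, *Cd47* from −0.43 to −0.29 and *Cd86* from −0.76 to −0.49. *Cd86* was −0.29 in batches 1 to 3 and −0.94 in batch 4 alone.

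*Krt79* was the 1 member called in each of the 12 fits without 1 library, and 0 were called without a replicate block, in batches 1 to 3 alone and in batch 4 alone. Of all rows, 0 were called in the first 2 of these fits and 52 of 14015 in batch 4 alone. The log2 fold change of *Krt79* was −0.65, −0.66 and −0.63 in them. With the adjusted p-value alone, 1 member passed, in place of 2, with RLE size factors, with no filter, with a block of 6 levels, without batch 1 and in each of the 12 fits without 1 library, and 0 passed with no block and in either part of the batches. Both *Siglecf* and *Krt79* passed with limma-voom and with a filter by group size, a setting added after seeing the data, and *Cd47* joined them with DESeq2.

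The difference of the genotype effect between batch groups kept its side of the threshold in all 15 other fits of each member. Near 0, its sign turned for *Krt79* without *Scnn1b*-Tg or WT replicate 5 (−0.040 and −0.020, range −0.040 to 0.11), for *Ptprc* without *Scnn1b*-Tg or WT replicate 1 (−0.070 in each, range −0.070 to 0.41) and for *Cd47* without *Scnn1b*-Tg or WT replicate 3 (0.028 in each, range −0.34 to 0.028). *Siglecf* ranged from −0.15 to −0.018 and *Cd86* from −0.99 to −0.42. The cause was not tested.

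The batch 4 contrast of *Krt79* was no longer past the threshold with RLE size factors (−0.14, adjusted p = 0.138) and with the filter by group size (−0.14, adjusted p = 0.110), and that of *Cd86* with RLE (−0.48, adjusted p = 0.102), with no filter (−0.50, adjusted p = 0.102) and with the filter by group size (−0.48, adjusted p = 0.100027). Without 1 library, *Krt79* ranged from −0.19 to −0.10 and *Cd86* from −0.59 to −0.31. *Siglecf*, *Ptprc* and *Cd47* passed under every setting run.

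WT levels in CPM moved by less than 1 SD with other size factors. Per kb of the longest transcript, *Krt79* was 236, *Ptprc* 174, *Cd47* 156 and *Cd86* 4.04 CPM per kb. Of the 3 genes most like a member, at most 1 was again among the 3 with Spearman's rho. With genotype subtracted, 2 were for *Ptprc* and 0 for the other members.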
